A study of Mus musculus with 6 samples.

Results

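Ligands of the TGF-beta, myostatin and activin group and their receptors were followed in C2C12 cells, a mouse myoblast line that fuses into myotubes when serum is withdrawn. The set was given by gene name: 3 TGF-beta genes (Tgfb1, Tgfb2, Tgfb3), the growth and differentiation factor gene Gdf11, the myostatin gene Mstn, the activin beta subunit genes Inhba and Inhbb, and the receptor genes Tgfbr1, Tgfbr2 and Acvr2b. Of these 10 genes, 9 were found among the 16854 genes of the deposited table; Mstn is not analysed here. RNA came from 3 knockdown libraries, made from C2C12 cells stably carrying a short hairpin RNA against Adamtsl2, and 3 control libraries, made from C2C12 cells carrying a scrambled hairpin. All cells were grown to confluence, moved to medium with 2% horse serum and harvested on day 3. Adamtsl2 encodes a secreted matrix glycoprotein, and the study placed it in Wnt signalling during muscle differentiation. Whether each stable line was a clone or a pool, and whether replicates were separate cultures, is not given in the sources used here, so p-values measure the spread between these libraries, which may be technical. The promoter and vector of the hairpin are likewise not stated in the sources, and effects of the hairpin other than loss of Adamtsl2 cannot be told apart from that loss. The comparison asks which of these signalling genes differed in RNA level between knockdown and control cells.

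These ligands are made as precursors, cut by furin-type proteases and secreted as dimers, and TGF-beta stays latent until it is released from its propeptide. A dimer joins type II receptors (TGFBR2 for TGF-beta, ACVR2A and ACVR2B for activins, myostatin and GDF11) with type I receptors such as TGFBR1, which phosphorylate SMAD2 and SMAD3. In muscle, the branch is known for restraint: myostatin limits muscle mass, and TGF-beta and activins slow myoblast differentiation in culture.

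Reads recovered from the normalised values, summed over the genes of the deposited table, came to 37346439 to 50329438 per library. Of these genes, 16245 were tested. Adamtsl2 stood at 23.2, 21.8 and 7.83 normalised counts in knockdown libraries 1 to 3, against 1325, 1266 and 1307 in the controls (log2 -6.26 ± 0.41, SE, adjusted p of 1.10e-04, limma). The third knockdown library stood apart: 36.5% of tested genes differed at least 2-fold between it and the mean of libraries 1 and 2, whereas 1.83% did so between control library 3 and the mean of control libraries 1 and 2. Results for the set are therefore given with and without it. Of 8 skeletal muscle markers, 7 were lower and 1 (Myf5) higher in the knockdown, and their summed level per kb of exon was 3310 to 4123 in knockdown libraries, against 373162 to 380288 in controls. Of 7 mesenchymal progenitor and fibroblast markers, 6 were measured; Ly6a and Cd34 were higher, Pi16 was lower, and Pdgfra, Dpt and Lum were not called (log2 0.47, 0.02 and -0.29; list median 0.25). Their summed level was 17299 to 23541 in knockdown libraries and 961 to 976 in controls, and Ly6a (mean count 19025 in the knockdown and 77.0 in the control) and Cd34 (22713 in the knockdown and 273.9 in the control) had the largest differences in mean count among the 6. Leukocyte markers (3 of 5 measured) summed to 45.6 to 56.8 in the knockdown and 43.5 to 66.8 in the control, with Itgam at 0 in knockdown libraries 1 and 2; endothelial markers (2 of 5 measured) summed to 1.08 to 15.3 in the knockdown and 12.1 to 14.9 in the control. None of 5 adipocyte markers was analysed here. These shifts in markers run alongside all results below, and their part in them was not tested. In bulk RNA, fewer cells of a type and less RNA per cell cannot be told apart.

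Gdf11, Inhbb and Tgfb2 fell in the knockdown, which is 3 of 9 measured genes, where 23.5% of all tested genes were lower; 0 of 9 were higher, where 21.7% of all tested genes were (limma, Benjamini-Hochberg adjusted p under 0.05). In the same 6-library test, 9 of 9 genes passed the filter on low values and 6 were not called. Without knockdown library 3, 4 genes were lower (Tgfb3 in addition) and 4 higher (Inhba, Tgfbr1, Tgfbr2 and Acvr2b), where 39.9% and 38.6% of all genes were. With 9 genes, these counts say nothing particular to the set. Knockdown and control values did not overlap for 6 of the 9 genes, close to the 62.6% of tested genes for which this held.

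**Figure D1:**
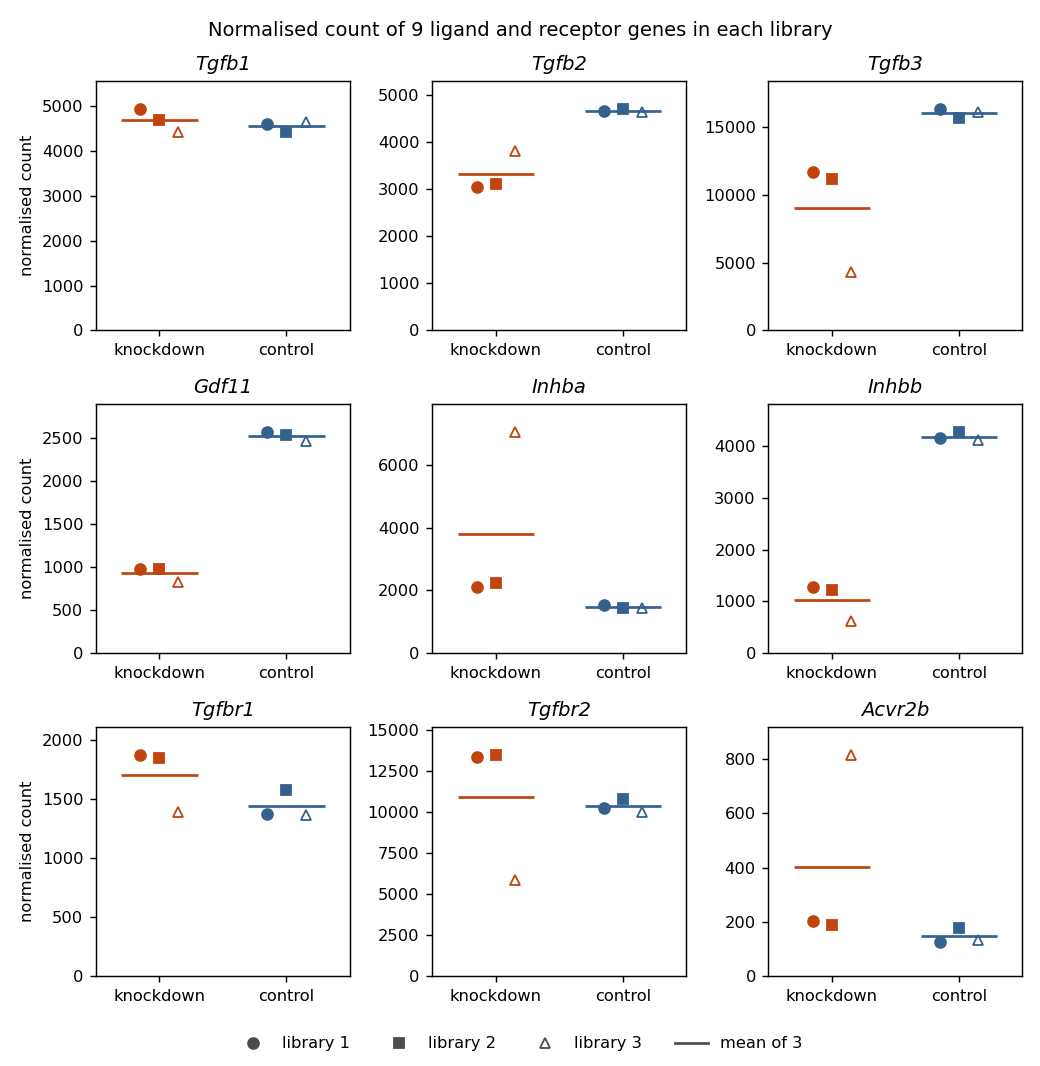
Normalised count (vertical axis, from 0) of each of the 9 genes in the 3 knockdown (orange) and 3 control (blue) libraries; points are libraries, open triangles are library 3 of each group, and lines are means of 3. Gdf11 lies between 832.8 and 983.7 in the knockdown and between 2463 and 2574 in the control, while knockdown library 3 is the farthest from the others for Tgfb3, Inhba, Tgfbr2 and Acvr2b.

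Gdf11, which encodes a close relative of myostatin, had the smallest SE of the 3 lowered genes. Its normalised counts were 975.0, 983.7 and 832.8 in the knockdown libraries, against 2574, 2534 and 2463 in the controls. All knockdown libraries lay far below all controls, and the third did not stand apart. The knockdown mean was 36.9% of the control mean (930.5 ± 84.7 and 2523 ± 56.2, SD, n = 3 each), a log2 change of -1.44 ± 0.12 (SE) with an adjusted p of 2.32e-04 (limma). Without knockdown library 3 it was -1.36 ± 0.05.

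Inhbb encodes the beta B subunit, which forms activin B as a dimer and inhibin B with the alpha subunit. Its counts were 1274, 1218 and 619.3 in the knockdown, against 4155, 4275 and 4108 in the control. The groups did not overlap, and the third knockdown library was the lowest. With a knockdown mean at 24.8% of the control mean, this was the largest fall among the 9 genes on the log2 scale, at -2.08 ± 0.29 (adjusted p of 0.00198, limma), or -1.75 ± 0.05 without knockdown library 3.

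Tgfb2, one of the 3 TGF-beta ligand genes, fell by less. Its counts were 3039, 3102 and 3817 in the knockdown and 4672, 4710 and 4634 in the control. Knockdown library 3 lay nearest to the controls, yet below each of them. The log2 change was -0.50 ± 0.13 with an adjusted p of 0.0218 (limma). The call was lost when any library other than knockdown library 3 was removed: the adjusted p was 0.0747 to 0.0875 over these fits. It was 0.105 with upper-quartile scaling (log2 -0.38) and 0.0641 in the fit with a replicate block, but 5.35e-07 without knockdown library 3 (log2 -0.61 ± 0.04).

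The promoters of the 3 lowered genes are shown as the sequences next to the starts of the genes called lower. The E-box (CANNTG) is a motif bound by the muscle factors encoded by Myod1 and Myog. Any part of these factors in the changes of the set was not tested. The windows run from 250 bases before to 50 after each gene's start, in RefSeq's GRCm38.p6 table, 5′ to 3′ on the gene's strand, with E-boxes in capitals. Gdf11 is at chr10:128891669-128891968, Inhbb at chr1:119422199-119422498 and Tgfb2 at chr1:186705940-186706239, all on the minus strand.
Gdf11: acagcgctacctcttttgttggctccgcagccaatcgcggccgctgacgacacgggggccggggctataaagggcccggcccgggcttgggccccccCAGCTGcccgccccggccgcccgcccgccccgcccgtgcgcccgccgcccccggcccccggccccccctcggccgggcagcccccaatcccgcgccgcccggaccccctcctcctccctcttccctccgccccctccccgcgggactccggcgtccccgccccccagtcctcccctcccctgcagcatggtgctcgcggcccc
Inhbb: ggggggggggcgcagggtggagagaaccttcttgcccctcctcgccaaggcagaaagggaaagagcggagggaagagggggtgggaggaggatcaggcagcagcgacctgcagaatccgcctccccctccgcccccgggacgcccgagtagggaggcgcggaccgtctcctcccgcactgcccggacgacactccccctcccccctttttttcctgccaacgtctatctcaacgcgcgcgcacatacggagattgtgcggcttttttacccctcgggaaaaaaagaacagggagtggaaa
Tgfb2: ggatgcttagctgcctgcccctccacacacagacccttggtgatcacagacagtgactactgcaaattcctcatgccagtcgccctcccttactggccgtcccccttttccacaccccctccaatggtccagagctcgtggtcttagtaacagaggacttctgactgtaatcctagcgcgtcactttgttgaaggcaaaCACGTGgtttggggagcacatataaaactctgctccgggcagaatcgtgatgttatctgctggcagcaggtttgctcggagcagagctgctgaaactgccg
Gdf11 held 1 E-box, at position -153 from the start, and Tgfb2 held 1, at position -51; the Inhbb window held none. The 8 matched genes of the set had 9 windows. On either strand, CANNTG was found in 4 of these 9 (Gdf11, Tgfb2, Tgfbr1, Tgfbr2) and in 72.3% of 32851 promoter windows of the table. The TATA motif TATAAA was in 3 of the 9 (Gdf11 at position -185, Tgfb2 at -31 and Inhba at -91), against 13.6% of all windows. CAGAC, a SMAD-binding motif, was in 4 of the 9 (Tgfb2, Tgfbr1, Tgfbr2, Acvr2b), against 49.6%. Tgfbr1 had more than 1 window. Its CANNTG and CAGAC matches were in the window starting at chr4:47385966, not in the one starting at chr4:47352972. No match overlapped another in the windows printed. These are letter matches, with no measure of binding.

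Tgfb3 was the most abundant of the 9 genes per kb in either group. Its counts were 11725, 11166 and 4322 in the knockdown, against 16381, 15662 and 16141 in the control. Every knockdown library lay below every control, and the third lay far below the first and second. The log2 change of -0.96 ± 0.40 did not pass (adjusted p of 0.0976, limma, 95% interval -1.93 to 0.01). Without knockdown library 3 it was -0.49 ± 0.05 (adjusted p of 4.85e-06). Tgfb1 was nearly level: 4942, 4693 and 4425 in the knockdown and 4592, 4417 and 4653 in the control, overlapping groups. Its log2 change was 0.04 (95% interval -0.22 to 0.30; adjusted p of 0.782, limma), and 0.08 (interval -0.03 to 0.19) without knockdown library 3.

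Inhba encodes the beta A subunit of activin A. Its counts were 2102, 2248 and 7053 in the knockdown, against 1554, 1441 and 1439 in the control. Every knockdown library lay above every control, with the third 3.24 times the mean of libraries 1 and 2. The log2 change of 1.12 ± 0.47 did not pass with 6 libraries (adjusted p of 0.101, limma, 95% interval -0.03 to 2.27), and was 0.56 ± 0.06 without knockdown library 3 (adjusted p of 1.11e-05).

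The make-up of the activin subunits thus differed between groups, in a ratio within each library that does not depend on its scaling. Per kb of exon, Inhba made up 52.3%, 55.1% and 88.4% of the sum of Inhba and Inhbb in knockdown libraries 1 to 3, against 19.9%, 18.3% and 18.9% in the controls. Each knockdown library held more Inhba than Inhbb and each control the reverse. The sum itself was 628, 638 and 1249 per kb in the knockdown and 1220, 1230 and 1191 in the control, so knockdown library 3 lay just above the controls and libraries 1 and 2 far below them. Tgfb3 took 69.7%, 69.2% and 45.4% of the summed TGF-beta ligand level per kb in the knockdown, against 73.8%, 73.3% and 73.5% in the control, and the sum was 4971, 4767 and 2814 against 6560, 6319 and 6494. The share of Tgfb1 was 19.7%, 19.5% and 31.2% in the knockdown and 13.9%, 13.9% and 14.2% in the control. For Tgfb2 the groups overlapped: its share was 10.6%, 11.2% and 23.4% in the knockdown and 12.3%, 12.9% and 12.3% in the control. With 3 libraries against 3, an exact two-sided permutation test of such a share cannot go below p = 0.1, the value it took for the shares of Inhba, Tgfb1 and Tgfb3.

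**Figure D2:**
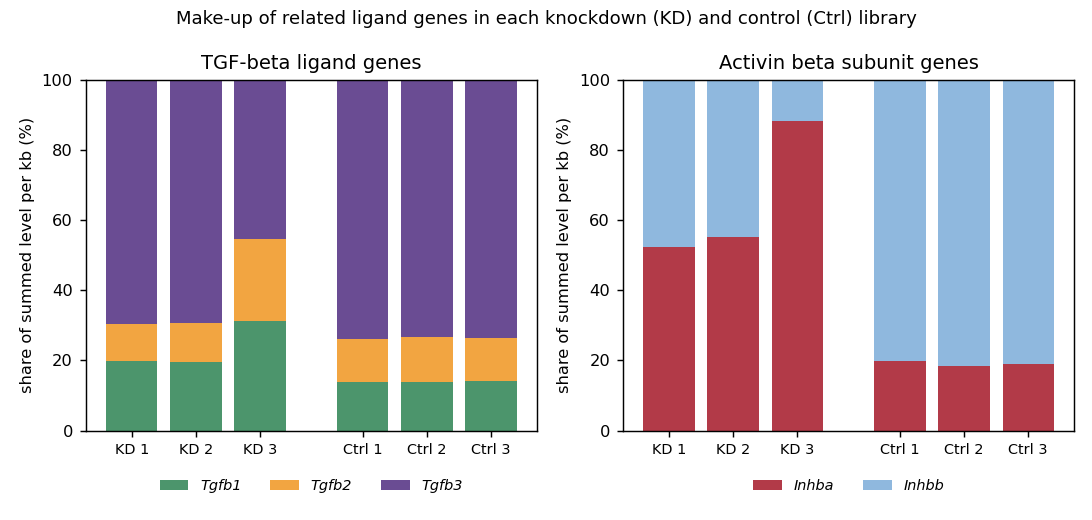
Stacked bars give the share (%) of each gene in the summed level per kb of exon of the TGF-beta ligand genes (left) and of the activin beta subunit genes (right), in each knockdown and control library. Inhba fills 52.3% or more of the bar in knockdown libraries and 19.9% or less in controls.

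None of the 3 receptor genes was called by limma with 6 libraries. Without knockdown library 3 all were higher by limma, where 38.6% of all tested genes were. DESeq2 on recovered reads of all 6 libraries did call Acvr2b (log2 1.49, adjusted p of 0.0420). Tgfbr2, the type II receptor that binds TGF-beta, was at 13342, 13506 and 5863 in the knockdown, against 10253, 10798 and 10031 in the control: knockdown libraries 1 and 2 lay above all controls and library 3 below them. With 6 libraries the log2 change was -0.02 ± 0.34 (adjusted p of 0.961, limma, 95% interval -0.86 to 0.81), and without knockdown library 3 it was 0.37 ± 0.05 (adjusted p of 4.41e-05). Tgfbr1, its type I partner, was at 1873, 1842 and 1392 in the knockdown and 1375, 1574 and 1364 in the control. Its groups overlapped, with a log2 change of 0.23 ± 0.16 (adjusted p of 0.277) and 0.37 ± 0.07 without knockdown library 3 (adjusted p of 6.99e-04). Per kb, Tgfbr2 stood at 5.69, 5.85 and 3.36 times Tgfbr1 in the knockdown libraries, against 5.95, 5.48 and 5.87 times in the controls.

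Acvr2b, a type II receptor of activins, GDF11 and myostatin, had the lowest mean per kb of the set in each group. In knockdown library 3 alone, Acvr2b (207.8 per kb) lay above Gdf11 (205.0) and Inhbb (145.6). Its counts were 204.8, 187.4 and 816.1 in the knockdown, against 126.4, 179.4 and 134.0 in the control. The groups did not overlap, but knockdown library 2 came close to control library 2 and library 3 was 4.15 times the mean of libraries 1 and 2. The log2 change was 1.12 ± 0.59 (adjusted p of 0.173, limma, 95% interval -0.32 to 2.55), and 0.43 ± 0.16 without knockdown library 3 (adjusted p of 0.0342).

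**Figure D3:**
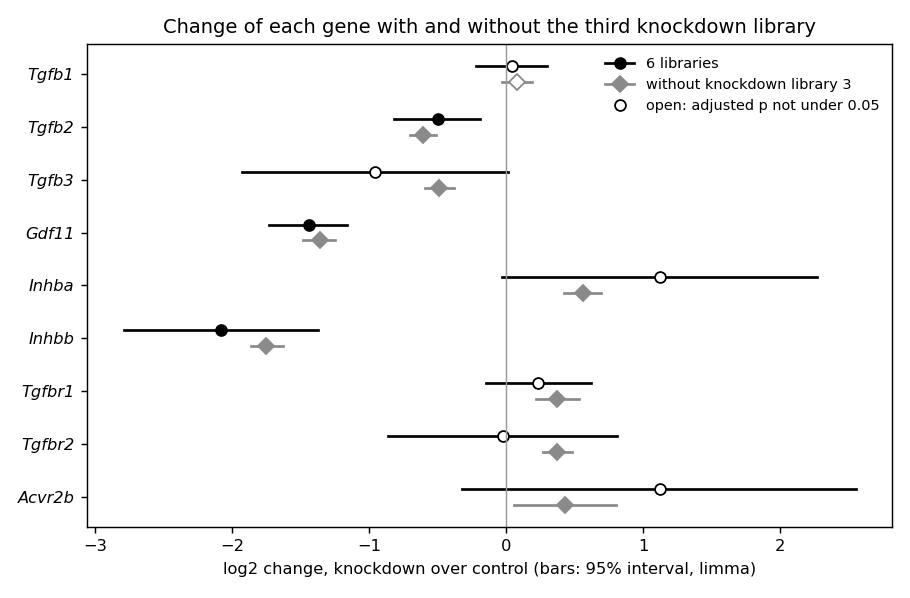
Log2 change of knockdown over control (horizontal axis) with its 95% interval from limma for each gene, with all 6 libraries (black circles) and without knockdown library 3 (grey diamonds); filled symbols had an adjusted p under 0.05. Gdf11 and Inhbb lie left of 0 in both fits, at -1.44 and -2.08 with 6 libraries.

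In the authors' deposited table, 5 of the 9 genes had an adjusted p under 0.05. The share over all genes of that table was not taken. DESeq2 on recovered reads called 8461 of 16245 tested genes, so the count says nothing particular to the set. The 5 genes were the 3 above (log2 -1.44 for Gdf11, -2.01 for Inhbb and -0.49 for Tgfb2, in the authors' deposited table), with Inhba at 1.36 (adjusted p of 0.0190) and Acvr2b at 1.46 (adjusted p of 0.0461). The last pair passed in the authors' deposited table and not in limma with 6 libraries.

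Knockdown library 3 did not move the genes evenly. Against the mean of the first and second, it was higher by 2.05 on the log2 scale for Acvr2b, 1.70 for Inhba and 0.31 for Tgfb2, and lower for Tgfb3 (-1.40), Tgfbr2 (-1.19), Inhbb (-1.01), Tgfbr1 (-0.42), Gdf11 (-0.23) and Tgfb1 (-0.12). Over all tested genes the median size of this gap was 0.73. The same gap for control library 3 was -0.19 to 0.05 over the 9 genes.

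On the scale of normalised counts per kb of exon, levels in knockdown cells ran from Tgfb3 (2681 ± 1219, SD, n = 3) through Tgfbr2 (1332 ± 533), Tgfb1 (929.5 ± 51.3), Inhba (595 ± 441), Tgfb2 (573 ± 74.5), Tgfbr1 (261 ± 41.2), Inhbb (244 ± 85.3) and Gdf11 (229 ± 20.9) to Acvr2b (103 ± 91.2). Every neighbouring pair overlapped there except Tgfb2 and Tgfbr1. In control cells the order was Tgfb3 (4748 ± 108, SD, n = 3), Tgfbr2 (1266 ± 48.2), Inhbb (982 ± 20.3), Tgfb1 (903 ± 24.3), Tgfb2 (807 ± 6.60), Gdf11 (621 ± 13.8), Inhba (231 ± 10.3), Tgfbr1 (220 ± 18.1) and Acvr2b (37.3 ± 7.29). Of these neighbours, Inhba and Tgfbr1 overlapped and the others did not. By these means, Inhbb held rank 7 of 9 in the knockdown and rank 3 in the control, and Inhba held rank 4 in the knockdown and rank 7 in the control. The knockdown ranks depend on library 3. In knockdown libraries 1 and 2, Inhba (328.9 and 351.7) lay below Tgfb2 (524.8 and 535.7). Inhbb (299.5 and 286.2) lay just above Tgfbr1 there (286.6 and 281.9).

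Among all 11812 genes with a symbol and a mean of at least 100, those whose profile over the 6 libraries was most like each member were found by the root mean square difference of centred log2 values. Gdf11 was nearest to Ftsj3 and Utp4 (difference 0.038 each), Inhbb to Lzts3 (0.045) and Stam2 (0.052), and Tgfb2 to Trappc13 (0.029) and Pum3 (0.031). Inhba was nearest to Nicn1 (0.042) and Lpl (0.067), and Acvr2b to Gm9856 (0.125) and Znrd1 (0.129). Tgfb3 was nearest to Pitpnb (0.029) and Sh2b3 (0.040), and Tgfb1 to Tmem222 and Ccnl2 (0.020 each). Tgfbr2 lay nearest to Il1r1 (0.022) and Pign (0.025), and Tgfbr1 to Scai (0.039) and Sel1l (0.042). Within the set, Tgfb1 and Tgfbr1 (0.165) and Inhba with Acvr2b (0.225) were the closest pairs. These are descriptions over 6 libraries in 2 groups. In the profiles of Acvr2b, Inhba, Tgfb3, Tgfbr2 and Inhbb, knockdown library 3 lay far from libraries 1 and 2 (log2 2.05, 1.70, -1.40, -1.19 and -1.01). Their matches therefore lean on that library, and no likeness was taken without it.

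Genes around these ligands and receptors were taken from 6 lists, which share some members. Of 63 measured, 17 rose and 18 fell, with a median log2 change of 0.12 beside -0.00 for all tested genes, of which 21.7% rose and 23.5% fell. Without knockdown library 3 the counts were 36 and 21, where 38.6% and 39.9% of all tested genes were called. The counts of each list below are descriptions to be read against these shares, and nothing particular to a list is drawn from them. Of 9 other ligand genes, 2 were measured and both fell. Inha, the alpha subunit that turns beta subunits into inhibins, was at 192, 261 and 177 in the knockdown and 489, 474 and 520 in the control (log2 -1.25 ± 0.19, adjusted p of 0.00269, limma). Gdf15, a stress-induced member of the superfamily, fell by 1.10 ± 0.26 on the log2 scale, with an adjusted p of 0.0642 or 0.0679 when control library 1 or 3 was left out.

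Of 6 other receptor genes, 2 rose and 0 fell (5 and 0 without knockdown library 3; list median 0.71). Acvrl1, a type I receptor best known from endothelium, was at 159, 156 and 139 in the knockdown and 6.54, 0 and 4.75 in the control. That is a log2 change of 5.44 ± 0.78 (adjusted p of 0.00226, limma), or 4.53 without control library 2, which had no read. Eng, the co-receptor endoglin, was at 242, 254 and 371 in the knockdown and 116, 135 and 146 in the control (log2 1.10 ± 0.22, adjusted p of 0.00908). The endothelial marker Vwf was lower in the knockdown and Pecam1 was at 4.97, 2.51 and 68.2 there, against 4.36, 3.79 and 1.90 in controls.

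Of 16 genes of latency and activation measured, 6 rose and 4 fell (median 0.43), and without knockdown library 3 it was 12 and 4. Ltbp1, which tethers latent TGF-beta to the matrix, was at 18188, 18279 and 10528 in the knockdown, against 3324, 3697 and 3287 in the control (log2 2.15 ± 0.24, adjusted p of 8.52e-04, limma). The metalloproteinase genes Mmp2 and Mmp14 rose by 2.92 ± 0.41 and 2.57 ± 0.30. Itgb6 and Itgb8, beta subunits of the integrins that release latent TGF-beta, fell. Itgb6 was at 7.46, 8.37 and 36.9 in the knockdown and 1062, 1003 and 1008 in the control (log2 -6.15 ± 0.59, or -6.85 without knockdown library 3), and Itgb8 was at 80.4, 86.2 and 76.0 against 505, 488 and 436 (log2 -2.54 ± 0.15). The transglutaminase Tgm2 fell by 2.39 ± 0.30. All knockdown libraries lay above the controls for Ltbp1 and below them for both integrin genes.

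Of 7 genes for secreted proteins that bind these ligands, 2 were higher and 2 lower (median 0.23; 4 and 2 without knockdown library 3). Fst encodes follistatin, which sequesters activins, myostatin and GDF11; it was at 732, 750 and 1307 in the knockdown, against 5913, 6253 and 6130 in the control (log2 -2.77 ± 0.24, adjusted p of 3.11e-04, limma). Wfikkn2, whose product binds myostatin and GDF11, was at 2.49, 2.51 and 4.47 in the knockdown and 74.1, 66.9 and 67.5 in the control (log2 -4.12 ± 0.31). The proteoglycan gene Dcn, whose decorin binds TGF-beta, was at 68597, 69622 and 145067 in the knockdown and 4717, 4720 and 4854 in the control (log2 4.22 ± 0.31, adjusted p of 1.72e-04). Its relative Fmod rose by 0.87 ± 0.23 (adjusted p of 0.0245), but its adjusted p was 0.0626 to 0.0876 when any library other than knockdown library 3 was left out.

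**Figure D4:**
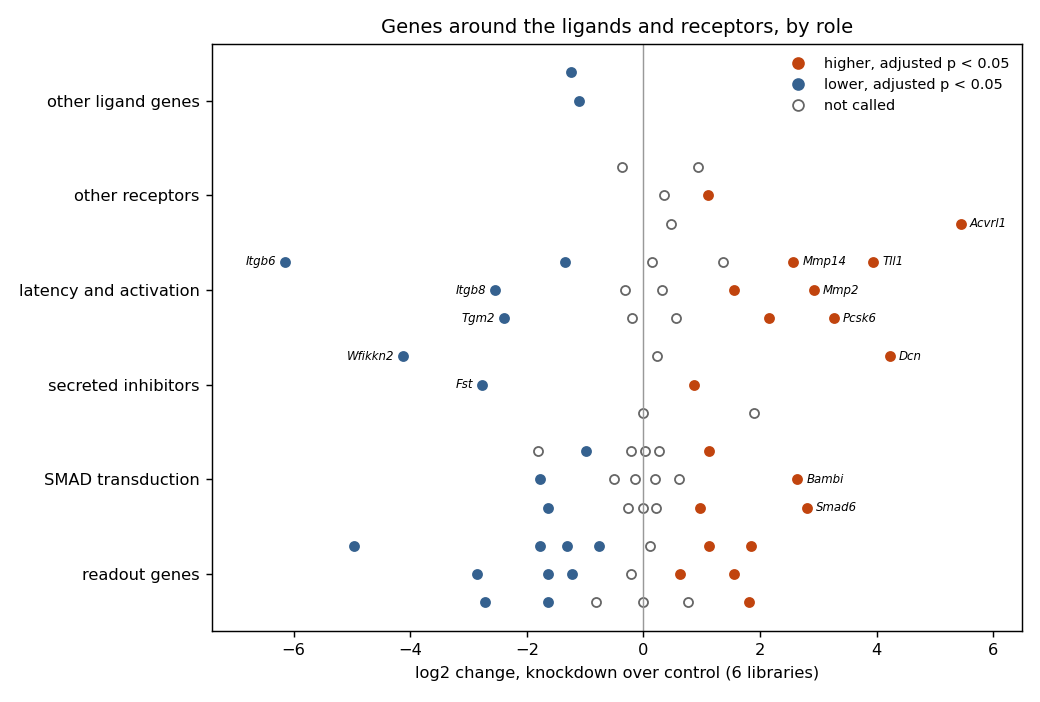
Each point is the log2 change of 1 gene, knockdown over control, with 6 libraries, by role (rows; the vertical offset within a row only separates points). Filled orange points rose, filled blue points fell, and open points were not called; the farthest genes are Itgb6 at -6.15 and Acvrl1 at 5.44.

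Of 18 transduction genes, 4 rose and 3 fell, and 11 were not called (median 0.02; 10 and 5 without knockdown library 3). The inhibitory SMAD genes rose: Smad6 was at 1928, 1747 and 1205 in the knockdown and 246, 205 and 234 in the control (log2 2.80 ± 0.21), and Smad7 at 1471, 1481 and 1226 against 634, 656 and 617 (log2 1.13 ± 0.13, adjusted p of 8.35e-04, limma). Bambi, a decoy receptor, rose by 2.64 ± 0.31. Skil, a repressor that SMAD signalling induces, was at 1023, 1023 and 747 in the knockdown and 3087, 3285 and 3154 in the control (log2 -1.78 ± 0.16). Pmepa1, a feedback inhibitor, and the deubiquitinase gene Usp15 fell by 1.63 ± 0.37 and 0.99 ± 0.24; their adjusted p was between 0.0524 and 0.0692 when any 1 control library was left out.

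Of 19 measured genes in wide use as readouts of TGF-beta and activin, 5 rose and 9 fell (median -0.77; 7 and 10 without knockdown library 3). Col1a1, a collagen chain, fell by 4.96 ± 0.31 on the log2 scale (adjusted p of 9.68e-05, limma). Ctgf, a matricellular growth factor gene, was at 5384, 4831 and 4788 in the knockdown and 3388, 2877 and 3506 in the control (log2 0.62 ± 0.13, adjusted p of 0.00941), and Postn, which encodes the matrix protein periostin, rose by 1.81 ± 0.23. Smad7 and Skil, described above, are in this list too.

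By GENCODE M21 on GRCm38, all 9 genes are protein-coding. The strand setting of the counting is not given in the sources used here, so reads from a gene and an antisense partner cannot be told apart. Exons of Tgfb3 (chromosome 12, 86056745 to 86079041, minus strand) overlap those of Gm37804, which was at 17.4, 14.2 and 11.2 in the knockdown and 55.6, 31.6 and 32.3 in the control, and of Gm48008. Exons of Tgfb2 (chromosome 1, 186622792 to 186705989, minus strand) overlap the antisense gene Gm29491. Gdf11 lies on chromosome 10 (128882295 to 128891718, minus strand) and Inhbb on chromosome 1 (119415465 to 119422248, minus strand), with no annotated gene overlapping either.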

How the data were processed

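RNA of 6 libraries was sequenced after poly(A) selection as paired 150 bp reads, per the labels' protocols. Trimmomatic 0.36, featureCounts in Subread 1.5.2, DESeq2 and GRCm38 are named in the submitters' processing notes; no source used here gives the aligner, annotation release or strand setting. The deposited values per library are a normalised signal: gene counts that the authors divided by a size factor. The deposited table also holds the authors' log2 fold change, p-value and adjusted p-value, per the file headers. Dividing by the value of 1 read in a library turned 100% of its values into whole reads (within 0.01 reads); 1 read was worth 0.829 to 1.26.

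The test was limma 3.58.1 (R 4.3.3) on log2(value + 1) with its trend option, for genes with at least 10 in at least 3 libraries, two-sided, with Benjamini-Hochberg adjustment over 16245 genes; 609 were not tested. On this scale the change of low genes is understated. Lists are described by counts and medians, without a test. Levels per kb use the union of exons in GENCODE M21; 16806 identifiers matched it and 48 did not. edgeR 4.0.16 and DESeq2 1.42.0 were run on recovered reads as alternatives. The limma procedure was tested on simulated reads in which no library stood apart. That run therefore says nothing on a library such as knockdown library 3. The genes named were all 9 measured, Adamtsl2, up to 3 called genes per direction of each list by adjusted p (1 gene so chosen is not reported here), and the 2 genes most like each of the 9; markers, Vwf and Pecam1 are given besides. The set and lists were chosen with earlier results of these data known.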

Additional observations from a re-analysis of the deposited data

How the results depend on the processing

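Gdf11 and Inhbb kept their call and direction under all 19 other settings. Tgfb2 kept its direction in all 19 and lost its call in 9, given above except those for an adjusted p of 0.01 and for a minimum of 2-fold, which it missed at -0.50. With 0 genes of the set higher in the 6-library fit, 2 were higher by DESeq2 on recovered reads (Inhba at 1.39, adjusted p of 0.0181, and Acvr2b at 1.49, adjusted p of 0.0420) and 0 by edgeR. Leaving out 1 library gave 0 to 4 higher, 13 to 36 surrounding genes higher and 5101 to 12754 genes called in all; each maximum is without knockdown library 3. edgeR without that library, chosen after seeing the data, gave 4, 38 and 12948. An adjusted p of 0.01 left 4828 of 7342 calls. Tgfbr2, never called with 6 libraries, was on the other side of 0 at 0.01 with TMM, 0.09 with upper-quartile scaling, 0.10 with edgeR, 0.08 with DESeq2 and 0.39 with edgeR without knockdown library 3. With 1 library left out, Tgfbr2 ran from -0.23 to 0.37. It was above 0 only without knockdown library 3 (0.37) or control library 2 (0.01). Against the main fit, the median log2 change of all genes shifted by 0.12 with upper-quartile scaling, 0.11 with edgeR, 0.09 with DESeq2 and 0.03 with TMM. The causes were not tested. The main fit did not take replicate numbers as pairs. Deviations from the group means correlated at 0.02, 0.10 and 0.14 between same-numbered libraries of the groups. Between differently numbered ones they correlated at -0.15 to 0.12. With values this close, the check cannot decide whether the numbers are pairs. With a replicate block, 6311 genes and 2 of the set (Gdf11, Inhbb) were called. Depth limits Acvr2b most, with 1201 reads over the knockdown and 399 over the control libraries.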
